A study of Schizophyllum commune with 14 samples.

Results

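The genes SC6, Hyd3, Hyd4, Hyd8 and Hyd9 of the mushroom Schizophyllum commune encode hydrophobins. They were chosen by their model numbers in the deposited tables (‘13059’ for SC6, ‘2486056’ for Hyd3, ‘2604485’ for Hyd4, ‘2526758’ for Hyd8 and ‘2547906’ for Hyd9) and make up 5 of the 16319 gene models there. Hydrophobins are small secreted fungal proteins with a conserved spacing of cysteines that assemble into an amphipathic film where hyphae meet air or a hydrophobic surface. The film lets hyphae leave a wet substrate, and in fruiting bodies hydrophobins coat surfaces and line air channels. SC6 is known as a hydrophobin gene of fruiting dikaryons, while the other 4 are named here only as members of the family, with no role given to each.

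Symbols came from the RefSeq gene table, through locus tags. Hyd3 (SCHCODRAFT_02485769), Hyd4 (SCHCODRAFT_02604198), Hyd8 (SCHCODRAFT_02526471) and Hyd9 (SCHCODRAFT_02547619) were reached through a constant offset between the numbers in the tags and in the tables. SC6 (SCHCODRAFT_02624306) was reached only through an older tag, so its identity is less certain than the others'. All 6 of its neighbours in the files lay within 6 genes of it in the gene table. The models measured 558 bases for SC6, 342 for Hyd3, 705 for Hyd4, 1112 for Hyd8 and 500 for Hyd9. Every read of the 5 models was placed uniquely, since unique and total read numbers were equal in all 14 libraries.

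PolyA RNA was sequenced from the dikaryon of strain H4-8, made from the monokaryons H4-8a and H4-8b. All stages came from plugs on MM medium kept in the dark at 30 °C and then at 25 °C under alternating light and dark. The stages were vegetative mycelium (3 libraries), stage 1 primordium (initials of up to 2 mm, 3 libraries), stage 2 primordium (3 to 4 mm, with an apical pit, 2 libraries), young fruiting body (5 to 7 mm, cup-shaped, 3 libraries) and fully expanded fruiting body (3 libraries). The labels do not say that replicates came from separate cultures, so p-values measure the spread between these samples only.

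Levels are given as RPKM, here unique reads per kilobase of model and per 1e6 reads of the TMM-scaled library (TMM is edgeR's scaling between libraries). The libraries held 13708387 to 24052213 unique reads. The 3 mycelium libraries shared a flow cell and the 11 fruiting libraries shared another, so wherever mycelium is compared the stage cannot be told apart from the flow cell. Stage 2 primordium replicate 2 stood apart by a TMM factor of 0.548 (0.860 to 1.21 in the other libraries). Fruiting body replicate 1 had the lowest correlation with the libraries of its own stage, a mean r of 0.941 over 14302 genes. A change counts as called at an adjusted p below 0.05 in edgeR's quasi-likelihood test, adjusted over the 14302 genes with enough reads. All 5 members were among these. Hyd9 was kept through its stage 1 reads alone and so had to differ from the other stages. Its tests are therefore not read, and the counts below are over the other 4 members unless Hyd9 is said to be included. Each log2 change is given with its standard error (SE). In such bulk tissue, fewer cells of a type and less RNA per cell cannot be told apart.

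In stage 1 primordium against vegetative mycelium SC6, Hyd3, Hyd4 and Hyd8 were all called higher, 4 of 4, where 22.5% of genes were called higher (44% in either direction). All 3 primordium libraries lay above all 3 mycelium libraries for each of them, as they did for 36% of genes. Their median log2 change was 9.27, with Hyd3 as a count ratio, against 0.02 for all genes. Hyd8 rose the most among the 3 members with more than 3 mycelium reads, by 10.77 ± 1.41 on the log2 scale, followed by SC6 (8.98 ± 1.62) and Hyd4 (6.50 ± 1.17; edgeR adjusted p = 8.21e-05, 0.000826 and 0.000832). The Hyd3 call was lost in limma voom and without stage 1 primordium replicate 2, and DESeq2 gave Hyd3 no adjusted p.

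In stage 2 against stage 1 primordium SC6, Hyd8 and Hyd3 fell and Hyd4 was not called, so that 3 of 4 were called lower, where 19.3% of genes were called lower (41.5% in either direction). For these 3 genes both stage 2 libraries lay below all 3 stage 1 libraries, as they did for 31% of genes, while those of Hyd4 overlapped. The median log2 change was -5.03 over the 4 members, with Hyd3 at the bound that 0 reads allow, against 0.04 over all genes. The count moved with libraries and settings. It was 1 without stage 1 primordium replicate 2, and 1, SC6, when fitted on these 2 stages only. Leaving out a stage 2 library leaves 1 in that stage, so only changes are given here. SC6 was then at -6.92 and -6.67 (without replicate 2 or 3) and Hyd8 at -4.28 and -2.58. The calls lost in those fits are given by gene below.

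No member was called in the later steps. In young fruiting body against stage 2 primordium edgeR called 0 of 4 (8.71% of genes called), with 0 at an unadjusted p below 0.05. DESeq2 and limma voom also called 0, with 1 and 0 at that unadjusted limit. In fruiting body against young fruiting body edgeR called 0 of 4 (3.54% of genes called), with 1 at an unadjusted p below 0.05, Hyd8. DESeq2 and limma voom called 0 there too, each with 1 at that limit. The members' median log2 changes were 1.16 and 2.19 in these steps, against 0.05 and 0.01 over all genes. The first of these medians counts Hyd3 at its bound against 0 stage 2 reads, at least 4.09-fold higher, and it rested on 1 library. Without young fruiting body replicate 1 Hyd3 had no fold, and the median of the other 3 was -0.39 (SC6 0.96, Hyd4 -0.39 and Hyd8 -1.72). Without that library Hyd8 was called in the second step (4.21, edgeR adjusted p = 0.0228).

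Hyd4 and Hyd8 were called higher in every later stage than in vegetative mycelium, and SC6 in the last 2. Stage 2 primordium had 2 of 4 members called higher, Hyd4 and Hyd8, where 24.3% of genes were called higher. Young fruiting body had 3 of 4 called higher, SC6, Hyd4 and Hyd8 (18.9% of genes called higher). Fruiting body had 3 of 4 called higher, again SC6, Hyd4 and Hyd8 (24.4% of genes called higher). These comparisons and the first one share the mycelium libraries.

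In fruiting body against stage 1 primordium edgeR called 0 of 4 members in either direction, with 0 at an unadjusted p below 0.05. DESeq2 and limma voom also gave 0 at both limits. Among all genes 14.5% were called lower. With DESeq2 size factors in edgeR 4860 of 14302 genes were called in either direction. The changes were -1.55 ± 1.12 for SC6, -3.61 ± 1.67 for Hyd3, -0.23 ± 0.90 for Hyd4 and -0.74 ± 0.88 for Hyd8 (edgeR adjusted p = 0.304, 0.116, 0.863 and 0.541). Leaving out stage 1 primordium replicate 2 or 3 made the count 1. A test of any difference among the 4 fruiting stages called 3 of 4, where 48.6% of genes were called. It compares no mycelium library, but the mycelium libraries enter its scaling and its estimate of the spread. SC6 (edgeR adjusted p = 0.0152), Hyd3 (0.0260) and Hyd8 (0.0369) passed and Hyd4 did not (0.399). Only 1 of 4 passed without stage 1 primordium replicate 2, and 0 of 4 without stage 2 primordium replicate 2. The Hyd8 call was lost without any of mycelium replicates 1 and 3, stage 1 primordium replicates 1 and 2, stage 2 primordium replicates 2 and 3, young fruiting body replicate 3 and fruiting body replicate 2 (adjusted p from 0.0505 to 0.0821). Without stage 2 primordium replicate 2 SC6 was at 0.0615 and Hyd3 at 0.0560, and Hyd3 was at 0.121 without stage 1 primordium replicate 2. The Hyd3 call was also lost in limma voom (0.335), in limma-trend (0.0794), with the replicate block (0.159) and in a fit on the fruiting stages alone (0.0636), and those of SC6 in limma voom (0.0507) and of Hyd8 in the fit on the fruiting stages alone (0.0730).

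**Figure D1:**
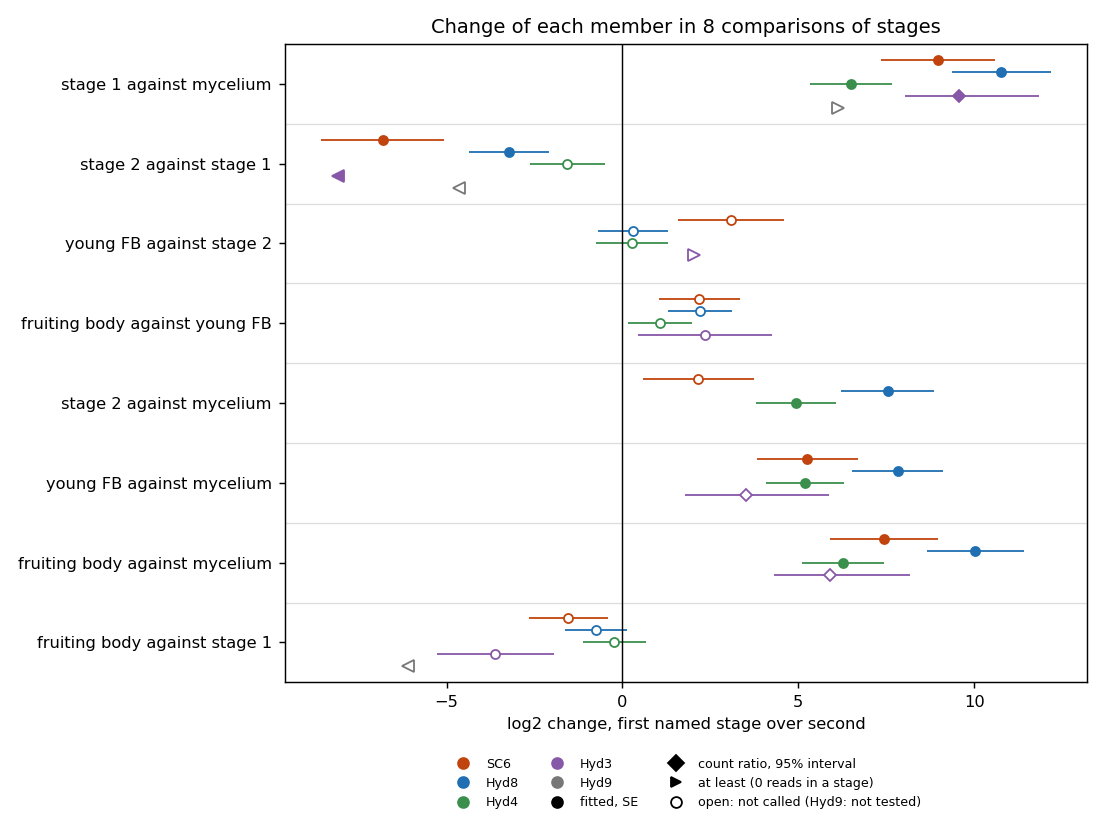
Log2 change of the 5 hydrophobins in 8 comparisons, the first named stage over the second. Circles are fitted changes with SE, diamonds are count ratios with 95% exact counting intervals, triangles are bounds where a stage had 0 reads, and open symbols were not called or, for Hyd9, not tested. All 4 filled symbols lie right of 0 for stage 1 against mycelium, and 3 filled symbols lie left of 0 for stage 2 against stage 1.

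SC6 rose in stage 1 primordium and fell in stage 2 primordium. It stood at 0.863, 0.293 and 1.31 RPKM in vegetative mycelium, at 286, 764 and 201 RPKM in stage 1 primordium and at 3.96 and 3.46 RPKM in stage 2 primordium. Young fruiting body had 80.3, 8.94 and 5.39 RPKM, and fruiting body had 5.59, 159 and 265 RPKM. Stage 1 primordium thus held 3 high libraries and stage 2 primordium 2 low ones, while both later stages held high and low libraries side by side.

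The stage means of SC6 were 0.822 ± 0.509 RPKM in mycelium and 417 ± 303 RPKM in stage 1 primordium (SD, n = 3 each). Stage 2 primordium averaged 3.71 ± 0.348 RPKM (n = 2). The young fruiting body mean was 31.5 ± 42.3 RPKM, and the fruiting body mean was 143 ± 130 RPKM (n = 3 each). The stage 2 mean ranked 10346th of 14302 genes, and the stage 1 mean ranked 327th. SC6 fell by 6.82 on the log2 scale in stage 2 against stage 1 primordium (SE 1.75, edgeR adjusted p = 0.00950). Without stage 1 primordium replicate 2, its highest library, the change was -6.04 and was still called. The call was lost without stage 2 primordium replicate 2 (-6.92, adjusted p = 0.0814) and without its replicate 3 (-6.67, adjusted p = 0.0596), each of which leaves 1 stage 2 library that is assumed to vary like the other stages.

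Ordered by mean, SC6 ran from stage 1 primordium through fruiting body, then young fruiting body, then stage 2 primordium, to mycelium, and no neighbours in that order were called apart. Stage 2 primordium against mycelium was not called (2.16 ± 1.59, edgeR adjusted p = 0.292). Fitted on those 2 stages alone, that change was called (2.17, adjusted p = 0.0215). Young fruiting body against stage 2 primordium was not called (3.10 ± 1.51, edgeR adjusted p = 0.200). That change was 0.96 without young fruiting body replicate 1 and 3.59 without its replicate 3. Against mycelium SC6 rose in young fruiting body (5.25 ± 1.43, adjusted p = 0.0139) and in fruiting body (7.43 ± 1.53, adjusted p = 0.00205). The young fruiting body call was lost without young fruiting body replicate 1 (3.12, adjusted p = 0.0832), without mycelium replicate 1 (5.29, 0.0517), without mycelium replicate 2 (4.84, 0.0597) and in limma voom (4.45, 0.142). Without stage 1 primordium replicate 2 the rise into stage 1 was 8.20, and without fruiting body replicate 3 the rise into fruiting body was 6.63, both still called.

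Hyd8 had the lowest mycelium mean of the 3 members with reads in every library, and rose in all 4 fruiting stages against it. Its levels were 0.303, 0.0368 and 0.193 RPKM in vegetative mycelium, from 13 reads in all. The stage 1 primordium libraries had 187, 638 and 114 RPKM, and the stage 2 libraries 50.6 and 16.3 RPKM. Young fruiting body had 102, 7.77 and 12.4 RPKM, and fruiting body had 240, 157 and 165 RPKM. Every fruiting library was above every mycelium library, and the fruiting body libraries lay close to one another, within 1.53-fold.

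The mean of Hyd8 was 0.178 ± 0.134 RPKM in mycelium and 313 ± 284 RPKM in stage 1 primordium (SD, n = 3 each). It was 33.4 ± 24.2 RPKM in stage 2 primordium (n = 2). Young fruiting body averaged 40.7 ± 53.1 RPKM and fruiting body 187 ± 45.6 RPKM (n = 3 each). It rose against mycelium in stage 2 primordium (7.54 ± 1.32), in the young fruiting body (7.83 ± 1.30) and in the mature one (10.03 ± 1.38; edgeR adjusted p = 0.000779, 0.000596 and 0.000107). It fell by 3.23 in stage 2 against stage 1 primordium (SE 1.13, adjusted p = 0.0382). That call was lost without either stage 2 library (-4.28 and adjusted p = 0.0903 without replicate 2, -2.58 and 0.187 without replicate 3), without stage 1 primordium replicate 2 (-2.17, 0.124) and, with the change itself at -3.23, without mycelium replicate 3 (0.0513).

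Hyd8 was not called in fruiting body against young fruiting body (2.20 ± 0.92, edgeR adjusted p = 0.181). Its means had the same order as those of SC6, and the only neighbours called apart were stage 2 primordium and mycelium. Without single libraries, the called changes of Hyd8 against mycelium moved to 9.72 in stage 1 primordium (without its replicate 2), to 6.49 and 8.18 in stage 2 primordium (without its replicate 2 or 3) and to 5.82 in young fruiting body (without its replicate 1), and all were still called.

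Hyd4 rose in all 4 fruiting stages against mycelium and was not called between any of the fruiting stages compared. It had 2.25, 1.57 and 2.32 RPKM in vegetative mycelium, 30.0, 482 and 45.8 RPKM in stage 1 primordium and 90.3 and 35.3 RPKM in stage 2 primordium. Young fruiting body had 130, 33.1 and 62.8 RPKM, and fruiting body had 101, 80.2 and 293 RPKM. Every fruiting library was above every mycelium library, and each fruiting stage overlapped the other 3.

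Means of Hyd4 were 2.05 ± 0.416 RPKM in mycelium and 186 ± 256 RPKM in stage 1 primordium (SD, n = 3 each). The stage 2 mean was 62.8 ± 38.9 RPKM (n = 2). Young fruiting body averaged 75.3 ± 49.7 RPKM and fruiting body 158 ± 117 RPKM (n = 3 each). Against mycelium it rose in stage 2 primordium (4.93 ± 1.14), in the young fruiting body (5.20 ± 1.11) and in the mature one (6.27 ± 1.16; edgeR adjusted p = 0.00435, 0.00340 and 0.000990). Its changes between fruiting stages were -1.57 ± 1.07 (stage 2 against stage 1 primordium), 0.27 ± 1.02 (young fruiting body against stage 2 primordium), 1.07 ± 0.91 (fruiting body against young fruiting body) and -0.23 ± 0.90 (fruiting body against stage 1 primordium), with edgeR adjusted p = 0.259, 0.889, 0.520 and 0.863. Its means, too, had the same order as those of SC6.

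One library set the sign of several of these Hyd4 values. Without stage 1 primordium replicate 2, at 482 RPKM, stage 2 against stage 1 primordium was 0.72 (edgeR adjusted p = 0.454) and fruiting body against stage 1 primordium was 2.06, which was then called (0.0477). Young fruiting body against stage 2 primordium was -0.33 without stage 2 primordium replicate 3 and -0.39 without young fruiting body replicate 1. Fruiting body against stage 1 primordium was 0.01 and 0.09 without fruiting body replicates 1 and 2. Against mycelium the changes stayed called without any 1 library, at 4.21 in stage 1 primordium without its replicate 2, 4.08 in stage 2 primordium without its replicate 2, 4.55 in young fruiting body without its replicate 1 and 5.47 in fruiting body without its replicate 3.

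Hyd3 was carried by single libraries. It had 2, 0 and 1 reads in vegetative mycelium, and 31, 1774 and 4 reads in stage 1 primordium, which were 4.95, 266 and 0.710 RPKM. Stage 2 primordium had 0 reads in both libraries, which allows up to 1.02 and 0.547 RPKM (3 reads; such limits cover counting error only). Young fruiting body had 23, 0 and 1 reads (4.03, 0 and 0.204 RPKM), and fruiting body had 7, 30 and 138 reads (0.819, 5.12 and 16.1 RPKM). Stage 1 primordium replicate 2 thus lay far above every other library, and the largest fruiting body value was reached in replicate 3.

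Hyd3 averaged 0.136 ± 0.141 RPKM in mycelium, 90.5 ± 152 RPKM in stage 1 primordium, 1.41 ± 2.27 RPKM in young fruiting body and 7.33 ± 7.86 RPKM in fruiting body (SD, n = 3 each). With 3 mycelium reads, stage 1 primordium against mycelium is given as a count ratio of 761 (95% exact counting interval 260 to 3692, edgeR adjusted p = 0.0115). Such intervals cover counting error only, not the spread between libraries. Without stage 1 primordium replicate 2 that ratio was 22.97 (7.24 to 117) and the call was lost (adjusted p = 0.102). Limma voom did not call this change either (6.10 on the log2 scale, adjusted p = 0.122). The ratio was 1590 without mycelium replicate 1, and it was 489 without replicate 2.

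In stage 2 against stage 1 primordium Hyd3 was at least 274-fold lower, with 3 reads over the stage as the floor (edgeR adjusted p = 0.0369). Its bound was 8.27-fold without stage 1 primordium replicate 2, 178-fold without stage 2 primordium replicate 2 and 95.6-fold without its replicate 3, and each of these lost the call (adjusted p = 0.157, 0.147 and 0.144). The call was also lost in limma voom (-6.44, adjusted p = 0.176), with the replicate block (0.0758) and in a fit on these 2 stages only (0.130). Fruiting body against mycelium was not called, at a ratio of 59.4 (20.0 to 291, edgeR adjusted p = 0.09999). That ratio was 20.1 without fruiting body replicate 3, 90.8 without fruiting body replicate 1, 38.2 without mycelium replicate 2 and 124 without mycelium replicate 1. This change was called without stage 1 primordium replicate 2 (0.0186), which is in neither group but enters the estimate of the spread. The change of -3.61 in fruiting body against stage 1 primordium was 1.36 without stage 1 primordium replicate 2 and -4.23, then called (0.0490), without its replicate 3. By mean, Hyd3 ran from stage 1 primordium through fruiting body, young fruiting body and mycelium to stage 2 primordium, and no neighbours in that order were called apart.

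Hyd9 had reads in stage 1 primordium and in no other stage. The 3 stage 1 libraries held 16, 38 and 111 reads, or 1.75, 3.90 and 13.5 RPKM (mean 6.37 ± 6.24, SD), and the other 11 libraries held 0. A count of 0 allows up to 0.239 RPKM in fruiting body replicate 3, the deepest after scaling, and up to 0.697 RPKM in stage 2 primordium replicate 2, the shallowest. Even in stage 1 primordium the mean level ranked 8983rd of 14302 genes.

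Against the floor of 3 reads over a stage, Hyd9 in stage 1 primordium was at least 69.4-fold higher than in mycelium. It was at least 25.0-fold lower in stage 2 primordium and at least 68.1-fold lower in fruiting body, both against stage 1 primordium. These bounds describe the reads and carry no test, since the gene was kept through its stage 1 reads alone. Leaving out stage 1 primordium replicate 3 lowered them to 32.6, 11.7 and 32.02. The stage 2 bound was 16.2-fold without stage 2 primordium replicate 2 and 8.72-fold without its replicate 3. The bound for fruiting body was 42.8 without its replicate 1 and 42.7 without its replicate 3. Leaving out mycelium replicates 1, 2 and 3 in turn gave 48.3, 44.6 and 45.8 for stage 1 primordium against mycelium.

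**Figure D2:**
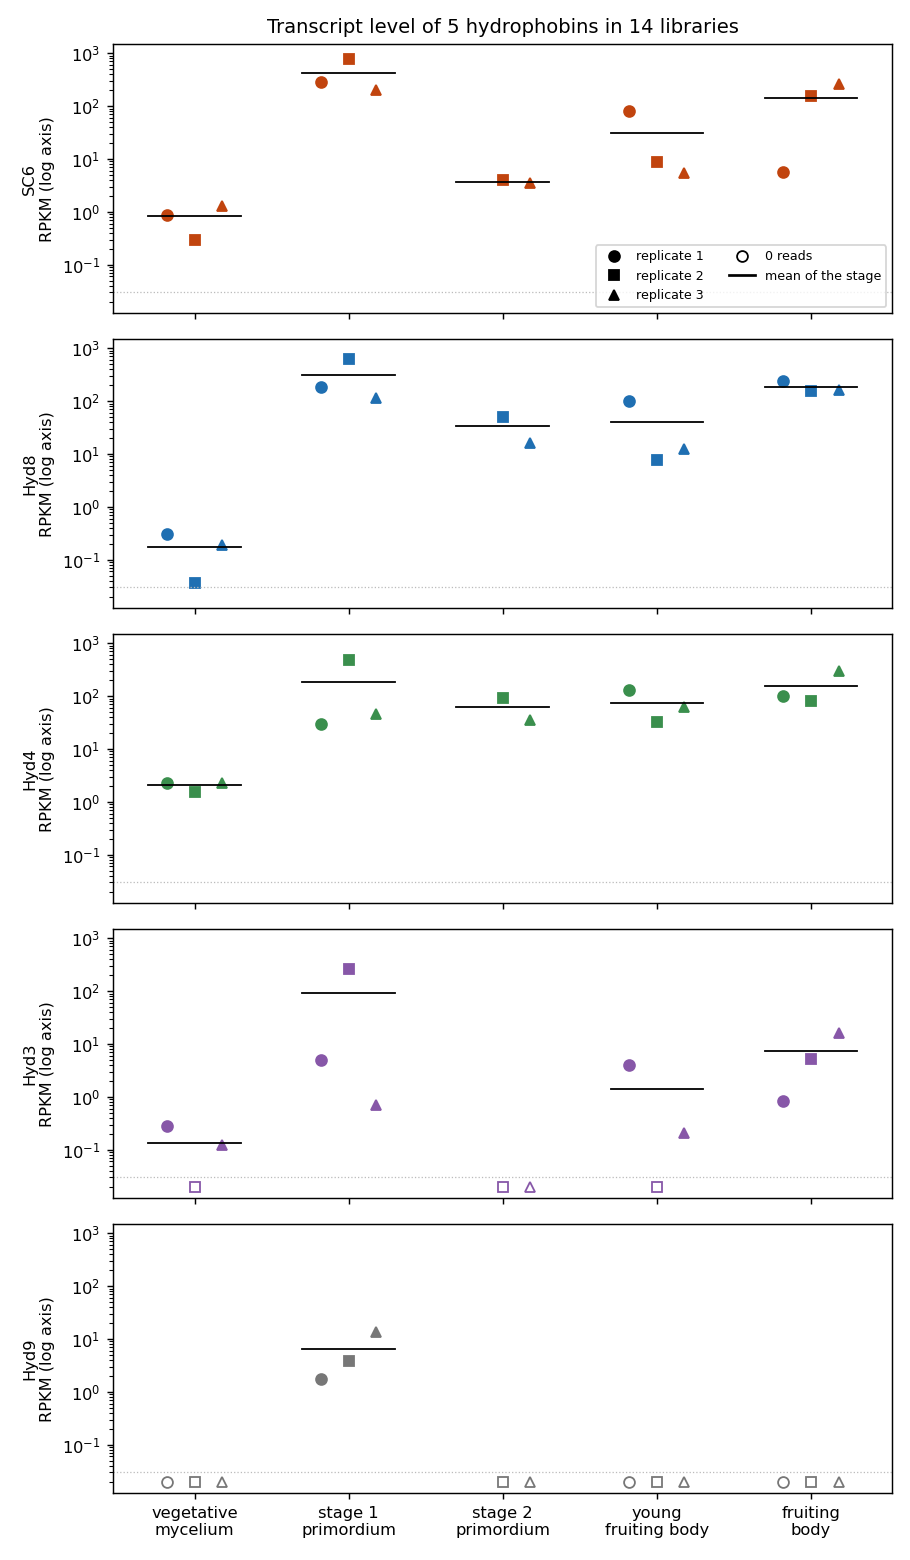
RPKM of each member in every library on a log axis, by stage from vegetative mycelium to fruiting body. Filled symbols are libraries (circle, square and triangle for replicates 1, 2 and 3), open symbols under the dotted line are libraries with 0 reads, and bars are stage means. SC6 lies at 3.96 and 3.46 RPKM in stage 2 primordium and between 201 and 764 RPKM in stage 1 primordium, while Hyd4 stays at 30.0 RPKM or more in all fruiting libraries.

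Summed over the 5 members, the level was 3.70, 1.90 and 3.94 RPKM in vegetative mycelium and 509, 2154 and 375 RPKM in stage 1 primordium. It was 145 and 55.1 RPKM in stage 2 primordium. The young fruiting body sums were 316, 49.8 and 80.8 RPKM, and the fruiting body sums were 347, 400.5 and 739 RPKM. The sum was higher in every fruiting library than in any mycelium library.

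Hyd4 led in all 3 mycelium libraries, with 60.9%, 82.6% and 58.7% of the sum. In stage 1 primordium the order was SC6, then Hyd8, then Hyd4 in all 3 libraries, with SC6 at 56.2%, 35.5% and 53.7%. The order of SC6 and Hyd8 there rests on the division by model length (558 and 1112 bases). In reads Hyd8 was the higher in all 3 libraries, at 3799, 13848 and 2090 against 2922, 8315 and 1853 for SC6. In stage 2 primordium the RPKM order was turned round in both libraries, with Hyd4 first at 62.4% and 64.1%, Hyd8 next at 34.9% and 29.6%, and SC6 at 2.73% and 6.29%.

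Hyd4 also led in all 3 young fruiting body libraries, at 41.1%, 66.4% and 77.7%. In replicate 1 Hyd8 was the higher in reads, at 1890 against 1530 for Hyd4. In fruiting body each library had another leader. Hyd8 held 69.0% in replicate 1, where SC6 held 1.61%. SC6 and Hyd8 were level in RPKM in replicate 2, at 39.6% and 39.1%, from 1515 and 2982 reads. Hyd4 led in replicate 3 with 39.7%, ahead of SC6 with 35.8%.

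**Figure D3:**
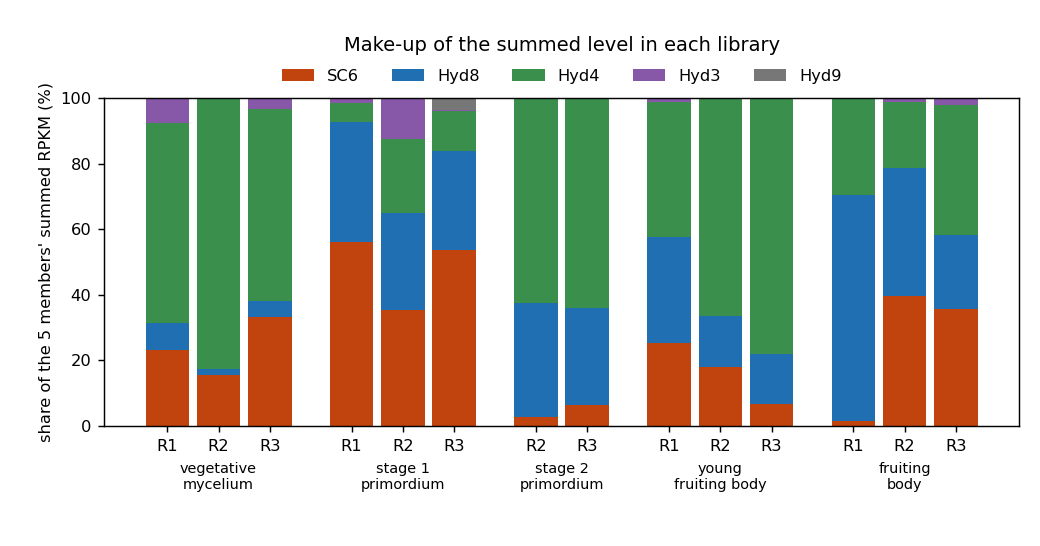
Share of each member in the summed RPKM of the 5, in percent, for each library (R1 to R3 are replicates). The SC6 share is 2.73% and 6.29% in stage 2 primordium and 35.5% to 56.2% in stage 1 primordium, and in fruiting body replicate 1 it is 1.61%.

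Ratios between members within a library were compared among the 4 fruiting stages, since such ratios do not depend on library scaling apart from the 0.5 RPKM added to each level. In stage 1 primordium the ratio of SC6 to Hyd4 was 9.54, 1.59 and 4.40. It was 0.0438 and 0.0982 in stage 2 primordium. The 3 young fruiting bodies had 0.617, 0.270 and 0.0858, and the 3 fruiting bodies 0.0552, 1.98 and 0.903. All 3 stage 1 ratios were above 1 and both stage 2 ratios were below 0.1, with the later stages between them or mixed.

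For SC6 over Hyd8 the stage 1 ratios were 1.53, 1.20 and 1.77, and the stage 2 ratios were 0.0782 and 0.212. The later libraries had 0.788, 1.15 and 0.433 (young fruiting body), then 0.0233, 1.01 and 1.60 (fruiting body). For Hyd8 over Hyd4 the stage 1 ratios were 6.22, 1.33 and 2.49, and the stage 2 ratios were 0.560 and 0.462. Here young fruiting body had 0.783, 0.235 and 0.198, and fruiting body had 2.37, 1.95 and 0.564. In both pairs the stage 1 ratios were all above the stage 2 ratios, and fruiting body replicate 1 held the lowest SC6 to Hyd8 ratio of all.

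An exact permutation test of each log2 ratio across the 4 stages (two-sided by construction, 10 pairs) passed for 0 of 10 pairs after Benjamini-Hochberg adjustment, with 2 at an unadjusted p below 0.05. These were Hyd8 to Hyd4 (exact p = 0.0351, adjusted 0.212) and SC6 to Hyd4 (exact p = 0.0459, adjusted 0.212). The 10 include the pairs with Hyd9, which had 0 reads in the fruiting stages after stage 1 primordium. Those pairs are not read one by one, but they enter the counts and the adjustment. SC6 to Hyd8 had an exact p of 0.252 (adjusted 0.419). With the Kruskal-Wallis statistic on the same permutations 0 of 10 passed, with 1 at an unadjusted p below 0.05. Without fruiting body replicate 1 the test passed for 2 of 10, SC6 to Hyd8 and SC6 to Hyd4 (exact permutation adjusted p = 0.0333 each). The smallest p the full design allows is 6.49e-05.

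**Figure D4:**
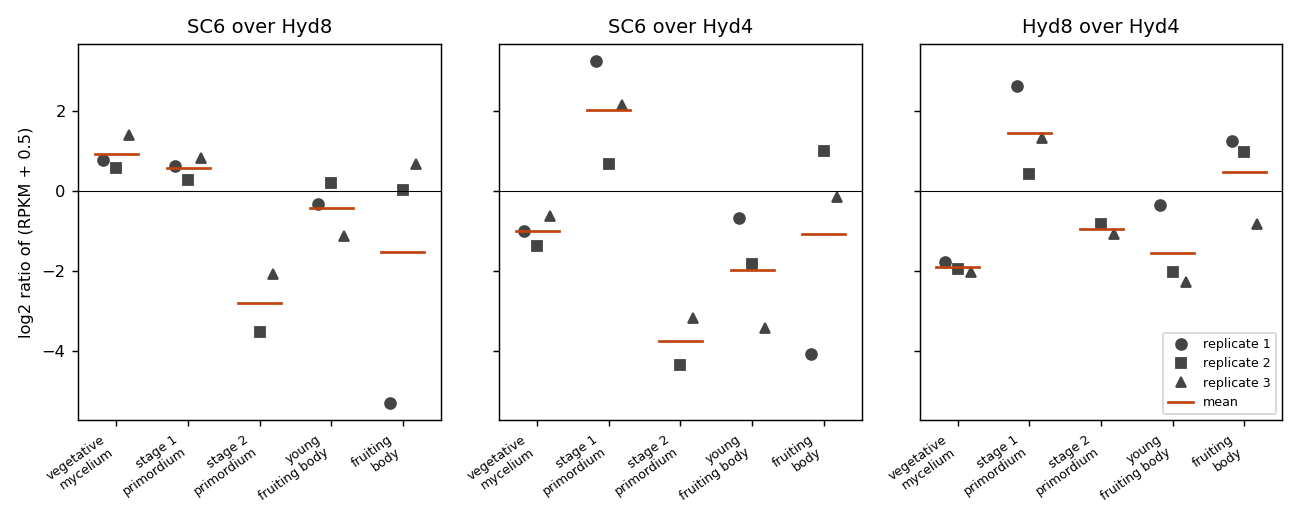
Log2 ratio of (RPKM + 0.5) for 3 pairs of members in each library, by stage. Symbols are replicates and bars are stage means. The mean log2 ratio of SC6 over Hyd4 is -3.76 in stage 2 primordium and 2.01 in stage 1 primordium, and SC6 over Hyd8 is -5.30 in fruiting body replicate 1.

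Replicates of the same stage differed more for these genes than for most. The spread within stages, on a log2 scale, was 1.66 for SC6, 1.69 for Hyd3, 1.24 for Hyd4, 1.16 for Hyd8 and 0.49 for Hyd9 (SD), against a median of 0.30 over 14302 genes. For SC6, Hyd3, Hyd4 and Hyd8 it was larger than in 99.7%, 99.7%, 98.9% and 98.5% of genes, as a description. Hyd9 stood above 84.2%, with 0 reads in 11 libraries.

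The same libraries were often high for several members. Stage 1 primordium replicate 2 was the highest of its stage for SC6, Hyd3, Hyd4 and Hyd8, and replicate 3 was for Hyd9. Young fruiting body replicate 1 was the highest for SC6, Hyd3, Hyd4 and Hyd8. Stage 2 primordium replicate 2 was the higher for Hyd4 and Hyd8. For SC6 the order of the 2 stage 2 libraries turned with the scaling, since replicate 2 was the higher after TMM and the lower by library totals (2.17 RPKM, against 3.11 RPKM in replicate 3). In fruiting body, replicate 3 was the highest for SC6, Hyd3 and Hyd4, and replicate 1 for Hyd8.

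Over all 14 libraries the Pearson correlation of log2(CPM + 1), with CPM as reads scaled to a library of equal size, was 0.90 between Hyd4 and Hyd8, 0.82 between SC6 and Hyd8, 0.74 between SC6 and Hyd3 and 0.70 between SC6 and Hyd4. Over the 11 fruiting libraries these were 0.63, 0.74, 0.74 and 0.46. Hyd3 gave 0.63 with Hyd4 and 0.61 with Hyd8 over all 14 libraries. Over the 11 fruiting libraries it gave 0.79 with Hyd4, the highest of the pairs compared, and 0.70 with Hyd8. The points share stages and flow cells, and the values are given as a description.

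The 3 genes with the highest r to each member were taken from 11415 genes with a stage mean of at least 5 CPM. Ranked in the same way among 11414 genes, Hyd8 stood 39th for Hyd4, SC6 stood 56th for Hyd3, Hyd4 stood 100th for Hyd8 and Hyd8 stood 421st for SC6. Closest to SC6 were model 1309466 (r = 0.974), SCHCODRAFT_02703466 (0.972) and SCHCODRAFT_01154339 (0.969). Closest to Hyd8 were SCHCODRAFT_02642810 (0.987), SCHCODRAFT_02622563 (0.968) and SCHCODRAFT_01164930 (0.962). Closest to Hyd4 were SCHCODRAFT_02689018 (0.960), SCHCODRAFT_01161563 (0.949) and SCHCODRAFT_02507190 (0.948), and closest to Hyd3 were SCHCODRAFT_02521978 (0.932), SCHCODRAFT_02513478 (0.915) and SCHCODRAFT_02580436 (0.914). Each r is over 14 libraries. Hyd9 stayed below 5 CPM in every stage mean and was not compared in this way.

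SCHCODRAFT_01154339 shared the shape of SC6 at lower mean levels, 0.166, 71.1, 1.25, 6.31 and 19.6 RPKM from mycelium to fruiting body. Model 1309466, the closest to SC6, ran over a smaller range, at 8.19, 40.9, 12.4, 16.9 and 30.9 RPKM. SCHCODRAFT_02642810 followed Hyd8 over a smaller range, at 35.7, 167, 81.6, 93.1 and 161 RPKM. SCHCODRAFT_02521978 ran alongside Hyd3 at 1.44, 21.3, 0.881, 2.15 and 8.21 RPKM.

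Of the other hydrophobins, SC3 and Hyd5 had a matched symbol. SC3, the hydrophobin of aerial hyphae, stood at 4.66, 23.04 and 15.5 RPKM in fruiting body, against 1042, 13.6 and 1664 RPKM in young fruiting body. It fell in fruiting body against young fruiting body (-5.98 ± 1.35, edgeR adjusted p = 0.0367), although young fruiting body replicate 2 lay below 2 of the 3 fruiting body libraries. In that step edgeR called 0 of the 4 members. Hyd5 stood at 17.6, 19.6 and 80.1 RPKM in stage 1 primordium. It stood at 395 and 95.7 RPKM in stage 2 primordium, where the higher value came from replicate 2, with the TMM factor of 0.548. Hyd5 thus rose in stage 2 against stage 1 primordium (2.65 ± 0.92, edgeR adjusted p = 0.0359), where SC6, Hyd3 and Hyd8 fell. SC3 fell in that step as well (-4.22 ± 1.48, edgeR adjusted p = 0.0382). These differences between genes were not tested as such.

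Of the regulators of fruiting on the list, 6 had a symbol, c2h2, Fst3, Fst4, Gat1, Bri1 and WC1. In stage 1 primordium against mycelium 2 rose and 1 fell (Gat1, -1.68 ± 0.24), 3 of 6 where 44% of genes were called. In stage 2 against stage 1 primordium 1 rose (WC1, 1.66 ± 0.27) and 4 fell, 5 of 6 where 41.5% of genes were called. The gene c2h2, which encodes a zinc finger protein required for primordia to form, averaged 16.7 ± 1.61 RPKM in mycelium and 169 ± 70.6 RPKM in stage 1 primordium (SD, n = 3 each). The stage 2 mean was 23.04 ± 17.7 RPKM (n = 2), and later means were 79.9 ± 31.9 RPKM in young fruiting body and 62.0 ± 33.7 RPKM in fruiting body (n = 3 each).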

How the data were processed

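RNA of 14 libraries was prepared with an unstranded polyA kit, per the labels' protocols, so reads of a gene and of an antisense partner cannot be told apart. The authors deposited unique and total read counts per gene model with a TPM value (which followed total reads over length) and span and length columns in other units. They also deposited a log2 RPKM table of 14681 models that does not list Hyd9. Per the submitters' processing notes, R 3.0.2, edgeR 3.4.2 and limma 3.18.13 were used. Aligner and build: not given in the sources used here.

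The unique counts were fitted with edgeR 4.0.16 (R 4.3.3), after keeping the 14302 of 16319 models that pass filterByExpr by stage, with TMM scaling, a robust quasi-likelihood fit over all 14 libraries and Benjamini-Hochberg adjustment over all genes kept. The script was tested on simulated data. Where a stage had 0 reads, changes are bounds against 3 reads over the stage, and with 1 to 3 reads they are ratios with exact 95% counting intervals. Ratios between members used log2 of RPKM + 0.5 and an exact permutation of stages over 92400 assignments. Members' levels were within 0.02 of the log2 RPKM in the authors' deposited table where a library had at least 200 reads. Depth was 13708387 to 24052213 unique reads.

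Alternatives covered scaling, filter, total reads, DESeq2 1.42.0, limma 3.58.1 (voom, and trend on the deposited log2 table), a replicate block, stages and single libraries. The members and lists were chosen with earlier results of these data known. Hyd9 was left out of the counts of called members after its values were seen. Named genes are the members, the 3 genes most like each, SC3, Hyd5 and the listed regulators. A planned search for further hydrophobins by cysteine pattern could not be run without protein sequences, so 2 of 8 listed hydrophobin symbols and 6 of 10 regulators were matched and measured.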

Additional observations from a re-analysis of the deposited data

How the results depend on the processing

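Counts of called members that moved were as follows, here and in the rest of this section over all 5 members. They include Hyd9, whose tests are not read as results since it was kept through its stage 1 reads alone. DESeq2 gave 3 of the 4 members with an adjusted p in stage 1 primordium against mycelium, 2 of 4 in stage 2 against stage 1 primordium, 0 of 4 in fruiting body against stage 1 primordium and 2 of 4 in the test among the fruiting stages (5, 4, 1 and 4 of 5 in edgeR). With Hyd9 left out, a choice made after seeing the data, edgeR gave 4, 3, 0 and 3 of 4. The only edgeR call in fruiting body against stage 1 primordium was Hyd9, so its loss there is no change in the other 4 members. Hyd3 had no adjusted p in DESeq2. The limma-trend fit, without Hyd9, gave 0 in fruiting body against stage 1 primordium and 2 among the fruiting stages, where voom also gave 2. Fitted on the stages compared only, 2 were called in stage 2 against stage 1 primordium and 2 among the fruiting stages.

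Leaving out 1 library at a time, counts ran from 0 to 4 in stage 2 against stage 1 primordium, 0 to 1 in fruiting body against young fruiting body, 1 to 2 in fruiting body against stage 1 primordium, 1 to 4 among the fruiting stages and 0 to 2 for pairs of members. Some log2 changes that were uncalled over all 14 libraries turned sign. These were Hyd4 in stage 2 against stage 1 primordium (-2.41 to 0.72) and, in young fruiting body against stage 2 primordium, Hyd4 (-0.39 to 1.09) and Hyd8 (-1.72 to 1.30). In fruiting body against stage 1 primordium they were Hyd3 (-4.99 to 1.36), Hyd4 (-1.03 to 2.06) and Hyd8 (-1.16 to 0.32). There Hyd4 was called at 2.06 (edgeR adjusted p = 0.0477) and Hyd3 at -4.23 (0.0490). Hyd8 in young fruiting body against stage 2 primordium was -0.36 with voom, -0.42 with limma-trend and -0.42 with the replicate block. Hyd4 in fruiting body against stage 1 primordium was 0.61, 0.61 and 0.17. For these values the cause was not tested.

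Same-numbered libraries deviated together with r over 0.1 in 6 of 26 pairs (r from -0.27 to 0.23). Differently numbered libraries were not compared, so this does not settle whether replicate numbers pair the samples. With the replicate block 5 members were called in stage 1 primordium against mycelium, 3 in stage 2 against stage 1 primordium (Hyd3 at adjusted p = 0.0758) and 3 among the fruiting stages. Scaling by library totals moved the median of all genes by up to -0.72 (stage 2 primordium against mycelium), and no member changed direction under the scalings tried. Outside the single-library fits, 362 of the values kept direction and side of the threshold, 16 lost a call, 1 gained one and 6 turned sign. Depth limits Hyd3 and Hyd9 most, since 3 reads are the smallest level told from 0.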
